A study of Mus musculus with 6 samples.

Results

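Kinesins are motor proteins that use ATP to move along microtubules or to take microtubule ends apart. The kinesin motor genes described here are all gene symbols that read Kif followed by a digit in the gene-by-cell tables of germinal centre B cells from mouse spleen. The rule found 40 symbols among 32452 listed in any table, of which 39 were listed in the day 7 table, 40 in the day 14 table and 34 in the chimaera table. Of the 40 symbols, 38 name motors. The other two are Kif1bp, which encodes a protein that binds several kinesin motors and holds them off microtubules, and Kif16bos, a long non-coding RNA transcribed opposite Kif16b. Motors whose symbols read otherwise (such as Kifc1) were not members and are given only as partners.

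In all 6 libraries the mice had received NP-haptenated antigen in alum, and single cells were profiled by droplet RNA sequencing from the 5′ end. The day 7 group holds 2 libraries from wild type mice, sorted as B220+ CD38- GL7hi cells 7 days after immunization. The day 14 group holds 2 libraries from wild type mice, sorted as B220+ CD95hi GL7hi IgD- cells at 14 days. The chimaera control library came from irradiated Il4ra+/+ hosts given wild type marrow, and the chimaera KO library from irradiated Ccl19Cre/+ Il4raf/f hosts given wild type marrow; both were sorted with the day 14 gate at 14 days. The KO hosts lose the IL-4 receptor alpha chain where the Ccl19 promoter drives Cre, in stromal cells, so the marrow-derived B cells measured here were wild type in all groups. The labels do not say whether libraries came from separate or pooled animals, so spread between them may be technical, and each chimaera group is 1 library.

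The libraries held 1012 and 2530 cells at day 7, 9109 and 10648 at day 14, 8038 in the chimaera control and 7314 in the chimaera KO. The median of unique molecular identifiers (UMIs, one per captured RNA molecule) per cell was 17277.5 and 18233.5 at day 7, 3399 and 3178.5 at day 14, 6676 for the chimaera control and 7185.5 for the KO library. The tables hold cells of different UMI ranges, from 7290 to 49966 at day 7, 500 to 9998 at day 14 and 554 to 19996 in the chimaeras. Levels are given as counts per 1000000 UMIs (CPM) of the 14548 symbols listed in all 3 tables, and the 6 libraries held 16670 to 49199 UMIs of kinesin members. Of 5 B cell markers, none was at 0 in any library, and their summed level was 4783 to 6304 CPM. The summed level of 6 myeloid markers was 1.81 to 23.0 CPM. That of the T cell markers was 57.8 to 130 CPM and came almost wholly from Lck, and the stromal markers summed to 27.2 to 113 CPM, almost wholly from Cr2, a gene that B cells also express. Pairs of libraries shared at most 1.54% of the cell barcodes of the smaller one.

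Kinesins divide broadly into motors of cell division and motors of transport. Mitotic kinesins push spindle poles apart, move chromosomes, trim microtubule ends and build the midzone where the cell divides, and most of their mRNAs are made late in the cycle. Transport kinesins carry vesicles, organelles and protein complexes in cells of any cycle stage. Germinal centre B cells alternate between the dark zone, where they divide and mutate their antibody genes, and the light zone, where they are selected, and they are among the fastest dividing cells of the body. Genes of the late cycle often carry in their promoters a cell cycle homology region (CHR, TTTGAA) near the transcription start, with CCAAT boxes a few turns of the helix upstream.

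RefSeq promoter windows (GRCm38.p6, 250 bases before to 50 after the start) were at hand for 32 of the 40 members. On either strand, TTTGAA stood in 9 of the 11 windows of members that rose from G1 to G2M by the rule given with the phase values, against 17.9% of all 32851 promoter windows of the same length. None of 6 windows of members without a cycle pattern held it. CCAAT stood in 7 of 11 windows and in 3 of 6, against 37.4% of all windows. Both motifs stood together in 6 of 11 and in 0 of 6, against 6.95%. The E2F-like letters TTTNNCGC were found in 2 of 11 windows, those of Kif15 and Kif18a, against 5.17% of all. Overlaps between matches were not counted apart, and a match is only a run of letters, not a measured site.

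In 7 of the 11 windows a TTTGAA began within 20 bases of the annotated start, against 2.17% of all windows; that width was chosen after the positions were seen. Those 7 windows are shown because they hold TTTGAA near the start in genes that rise in G2M, and Kif3b is shown as a member with no cycle pattern. The windows of Kif18a and Kif24, which rise as well, hold no TTTGAA. Capitals mark TTTGAA and CCAAT, or TTCAAA and ATTGG where the motif lies on the opposite strand, and each sequence reads 5′ to 3′ along the gene.
Kif11 (chr19:37376132-37376431, plus strand): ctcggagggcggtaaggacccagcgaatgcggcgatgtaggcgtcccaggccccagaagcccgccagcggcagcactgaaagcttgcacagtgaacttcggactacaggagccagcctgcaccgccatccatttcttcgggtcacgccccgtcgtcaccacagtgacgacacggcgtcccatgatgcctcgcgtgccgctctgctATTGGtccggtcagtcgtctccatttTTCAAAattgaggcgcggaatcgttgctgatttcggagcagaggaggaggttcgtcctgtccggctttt
Kif15 (chr9:122950831-122951130, plus strand): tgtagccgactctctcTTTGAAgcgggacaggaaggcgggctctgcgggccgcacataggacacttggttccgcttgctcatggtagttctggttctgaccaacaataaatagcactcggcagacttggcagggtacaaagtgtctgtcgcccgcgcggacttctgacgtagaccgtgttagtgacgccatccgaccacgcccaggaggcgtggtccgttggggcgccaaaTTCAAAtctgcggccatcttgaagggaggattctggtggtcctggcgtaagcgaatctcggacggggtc
Kif18b (chr11:102925075-102925374, minus strand): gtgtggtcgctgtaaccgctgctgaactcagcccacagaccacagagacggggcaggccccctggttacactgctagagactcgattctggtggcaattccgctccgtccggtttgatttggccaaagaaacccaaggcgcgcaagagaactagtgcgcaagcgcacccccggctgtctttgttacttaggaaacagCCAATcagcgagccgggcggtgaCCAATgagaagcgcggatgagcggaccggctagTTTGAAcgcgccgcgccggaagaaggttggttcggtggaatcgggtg
Kif20b (chr19:34922108-34922407, plus strand): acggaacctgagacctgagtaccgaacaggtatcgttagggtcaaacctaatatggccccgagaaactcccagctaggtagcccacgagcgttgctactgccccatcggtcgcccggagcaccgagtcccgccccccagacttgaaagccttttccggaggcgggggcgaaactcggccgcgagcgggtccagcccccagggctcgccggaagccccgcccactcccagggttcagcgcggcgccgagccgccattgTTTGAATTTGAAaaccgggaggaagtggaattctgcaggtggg
Kif22 (chr7:127042371-127042670, minus strand): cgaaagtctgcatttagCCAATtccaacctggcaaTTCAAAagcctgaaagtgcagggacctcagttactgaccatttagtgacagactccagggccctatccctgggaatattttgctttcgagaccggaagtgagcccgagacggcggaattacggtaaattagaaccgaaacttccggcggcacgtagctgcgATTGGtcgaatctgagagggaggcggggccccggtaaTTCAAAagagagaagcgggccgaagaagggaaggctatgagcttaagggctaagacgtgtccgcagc
Kif23 (chr9:61946750-61947049, minus strand): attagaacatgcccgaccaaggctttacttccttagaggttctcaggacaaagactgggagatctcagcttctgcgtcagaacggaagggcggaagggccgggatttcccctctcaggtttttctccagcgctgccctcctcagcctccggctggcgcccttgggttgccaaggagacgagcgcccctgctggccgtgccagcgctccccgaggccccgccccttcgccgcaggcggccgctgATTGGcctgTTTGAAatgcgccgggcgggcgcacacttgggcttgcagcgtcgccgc
Kif4 (chrX:100625815-100626114, plus strand): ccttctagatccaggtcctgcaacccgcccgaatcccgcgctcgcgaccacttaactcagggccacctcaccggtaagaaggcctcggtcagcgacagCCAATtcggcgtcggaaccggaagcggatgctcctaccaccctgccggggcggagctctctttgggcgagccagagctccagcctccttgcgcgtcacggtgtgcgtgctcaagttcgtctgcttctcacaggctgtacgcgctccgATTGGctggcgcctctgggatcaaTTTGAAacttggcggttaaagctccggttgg
Kif3b (chr2:153291166-153291465, plus strand): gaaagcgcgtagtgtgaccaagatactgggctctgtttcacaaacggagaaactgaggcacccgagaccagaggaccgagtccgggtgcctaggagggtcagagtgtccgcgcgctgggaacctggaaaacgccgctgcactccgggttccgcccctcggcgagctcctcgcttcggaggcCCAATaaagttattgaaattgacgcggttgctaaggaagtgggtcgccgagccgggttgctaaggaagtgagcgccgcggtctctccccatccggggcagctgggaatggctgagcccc
Counted from the first transcribed base as 1, the leftmost base of the TTTGAA nearest to the start lay at -19 in Kif11 and Kif15, at -17 in Kif22, at 3 in Kif23, at 4 in Kif18b, at 8 in Kif20b and at 20 in Kif4. A CCAAT lay upstream of it in Kif11 (-45), Kif22 (-54), Kif18b (-53 and -30), Kif23 (-7) and Kif4 (-5 and -152). The windows of Kif14 and Kif2c, which hold TTTGAA at -228 and -103, belong to starts 1547 and 3852 bases inside the annotated gene. No window was at hand for Kif20a, Kif5b, Kif13b, Kif21b and Kif1bp, among the members with a level of at least 5 CPM.

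Taken over all cells, 22 of the 40 members had a mean level of at least 5 CPM over the 6 libraries. The most abundant was Kif5b, the heavy chain of kinesin-1, a general cargo motor, at 129.7 and 129.9 CPM at day 7, 171 and 159.7 at day 14, with 113 for the chimaera control and 112 for the KO library. Next stood Kif11, the motor that slides spindle poles apart, at 93.9 and 94.7 CPM at day 7, 148 and 164 at day 14, with 78.2 for the chimaera control and 84.5 for the KO library. Kif23, the motor of centralspindlin that builds the cell division midzone, was at 83.5 and 91.1 CPM, 145 and 146, 87.7 and 89.0 in the same order. In each of these genes the day 14 libraries were the highest, and the other 4 libraries lay below them. Since the reads come from the 5′ end, a UMI is one transcript end and the levels are not scaled by length.

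Among the 11 members known as motors of mitosis, mean levels ran from 18.1 CPM in Kif14 to 111 CPM in Kif11. Among members without a cycle pattern they ran from 5.81 CPM in Kif3a to 136 CPM in Kif5b. The remaining 18 members stayed under 5 CPM or were not listed in every table. Kif3c (839 UMIs in all), Kif19a (691) and Kif9 (542) were the best counted of these. The 10 others with any count, Kif13a, Kif16bos, Kif17, Kif21a, Kif26b, Kif27, Kif5a, Kif5c, Kif7 and Kif26a, had 1 to 61 UMIs over all 6 libraries. Kif12, Kif1a, Kif2b, Kif6 and Kif28 had 0 UMIs wherever they were listed, so that a level of up to 0.150 CPM in the shallowest library is allowed by a count of 0. Some motors known from neurons and cilia (Kif1a, Kif5a, Kif5c, Kif17, Kif7, Kif27) averaged 0.24 CPM or less where they were counted. Others were higher, such as Kif1b, known from neurons, at a mean of 7.23 CPM and Kif9, known from cilia, at 2.13 CPM.

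The phase of the cell cycle deposited with each cell split the members into a group that rose towards mitosis and a group that did not. How the submitters called the phase is not stated, and common gene lists for such calls hold Kif11, Kif20b, Kif2c, Kif23 and Cenpe, so these values are a description. With at least 5 CPM and a G2M to G1 ratio of at least 2 in all 6 libraries, 12 members made the mitotic pattern: the 11 textbook mitotic motors and Kif24, a centriolar kinesin that keeps dividing cells from growing a cilium. The other 10 at this level did not meet this rule and are called members without a cycle pattern. Among them, Kif21b (ratios of 0.631 to 0.852) and Kif3a (0.735 to 0.957) were lower in G2M than in G1 in all 6 libraries. Kif24, with the lowest ratios of the 12 (2.66 to 4.57), and Kif2a, with the highest median of the 10 (1.39, from 1.27 to 1.84), stood on either side of the limit.

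Summed over the 11 mitotic motors, the level was 86.4 to 165 CPM in G1 cells, 349 to 563 CPM in S cells and 897 to 1653 CPM in G2M cells. The summed transport kinesins were at 184 to 378 CPM in G1, 185 to 367 in S and 195 to 368 in G2M, so that the ranges of the 3 phases overlapped. Within libraries the transport sum was lower in S than in G1 in 5 of 6, most in day 7 replicate 1 (244 CPM in G1, 209.6 in S and 239 in G2M), and it was level in the KO library (184 and 185 CPM). Kif2c, which takes microtubule ends apart at centromeres, went from 2.45 to 6.335 CPM in G1 to 59.1 to 74.0 CPM in G2M, and its G2M to G1 ratio was 9.42 to 30.1. Kif11 went from 11.5 to 28.1 CPM in G1 to 144 to 330.2 CPM in G2M. The G2M ranges of both genes lay wholly above their G1 ranges. In contrast, Kif5b had a ratio of 0.985 to 1.09 over the 6 libraries, and Kif21b, a motor that limits microtubule growth, one of 0.631 to 0.852.

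**Figure D1:**
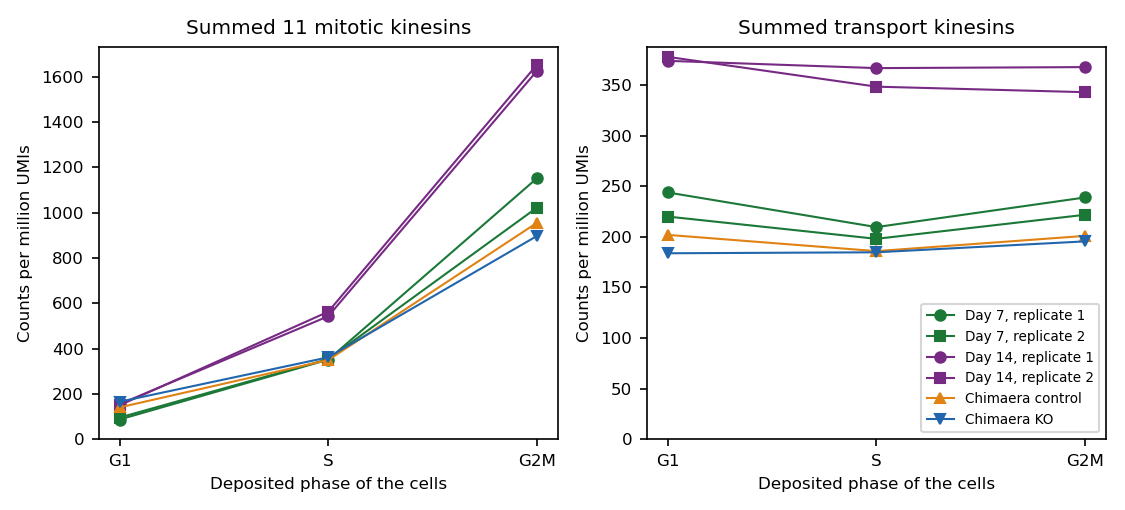
Summed level of 11 mitotic kinesins (left) and of the transport kinesins (right), in CPM, by the deposited phase of the cells, with 1 line for each of 6 libraries and no error bars. The mitotic sum climbs from 86.4 to 165 CPM in G1 to 897 to 1653 CPM in G2M, while the transport sum lies lower in S than in G1 in 5 of 6 libraries, by at most 244 against 209.6 CPM.

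The steps from G1 to S and from S to G2M differed in size among the mitotic motors. The median G2M to S ratio was 5.74 for Kif2c, 4.44 for Kif20a, which carries the chromosomal passenger complex to the midzone, and 3.67 for Kif23. It was 1.85 for Kif15, a motor that helps keep spindles bipolar, and 1.02 for Kif24. Thus Kif24 was as high in S as in G2M cells (for example 15.4 CPM in S and 12.9 in G2M in day 7 replicate 1, and 17.4 and 20.7 in day 14 replicate 1), while Kif2c was mostly a G2M transcript.

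To test the change with phase, each cell was given a phase from S and G2M gene lists with every kinesin taken out. Members thus took no part in the call. The classes still come from cycle genes of the same cells, so a rise of genes expressed along with these is partly built in. The 2 calls gave the same phase to 87.4% to 96.6% of the cells of a library. Counts were summed per library and phase and compared in edgeR with the library as a block, over 6 libraries. From G1 to G2M, 18 of 25 members tested rose and 2 fell, against 29.9% of all 11410 genes rising and 31% falling. All 11 mitotic motors rose, with a median log2 change of 3.41, against a median of -0.02 for all genes tested.

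Kif2c rose most, by a log2 change of 3.88 (SE 0.18, edgeR adjusted p = 3.21e-12), and Kif20b, a kinesin of late cytokinesis, least among the 11, by 2.72 (SE 0.11, edgeR adjusted p = 8.15e-13). Between them lay Kif18b (3.77), which shortens astral microtubules, Kif22 (3.59), a motor on chromosome arms, and Kif14 (3.52), which works with citron kinase in cytokinesis. Kif4 (3.01), a chromosome-bound kinesin of the midzone, and Kif18a (2.95), which damps chromosome movements at the metaphase plate, changed less. Kif24 rose by 1.93 (SE 0.13, edgeR adjusted p = 3.85e-10). Each of these 12 genes also rose from G1 to S, by 1.31 (Kif20b) to 2.24 (Kif14).

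The members without a cycle pattern moved little. Kif2a, a microtubule depolymerase of spindle poles and of interphase cells, rose by 0.60 (SE 0.06, edgeR adjusted p = 3.87e-08) in G2M and by 0.63 in S. The other 5 that rose in G2M were Kif1c (0.32), Kif16b (0.26), Kif3b (0.26), Kif1bp (0.21) and Kif5b (0.11), of which 3 depended on the cells or libraries used. Kif5b no longer passed with cells thinned to 1000 UMIs (0.035), without the chimaera control (0.097) or the KO library (0.085), or with no filter on low counts (0.086). With thinned cells Kif16b (0.32, edgeR adjusted p = 0.183) and Kif1c (0.18, edgeR adjusted p = 0.443) did not pass either, nor did Kif16b without day 14 replicate 1 (0.23) or the chimaera control (0.26). Those that fell were Kif21b, by 0.35 on the log2 scale (SE 0.06, edgeR adjusted p = 6.63e-05), and Kif9, a motor known from cilia, by 0.56. Kif13b, Kif19a, Kif3c, Kif3a and Kif1b had changes of 0.07, 0.08, 0.06, -0.02 and -0.07 that did not pass the test.

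From G1 to S, 16 of 25 members rose and 4 fell, against 30.5% and 33.1% of all genes. Besides the 12 named above, Kif2a, Kif1c (0.43), Kif1b (0.36) and Kif13b (0.15) rose. With thinned cells Kif1c (0.36), Kif1b (0.37) and Kif13b (0.16) did not pass, with edgeR adjusted p = 0.0973, 0.113 and 0.227. Kif13b did not pass either without the KO library (0.11), with the deposited phase (0.12), with no filter on low counts (0.12) or in DESeq2 (0.14). Kif21b fell by 0.51, Kif19a by 0.60, Kif9 by 0.65 and Kif3b by 0.30. Kif3b, which pairs with Kif3a in the kinesin-2 motor, was therefore lower in S and higher in G2M than in G1. With cells thinned to 1000 UMIs, 2 members in place of 4 were called lower in S, and 1 in place of 2 in G2M.

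**Figure D2:**
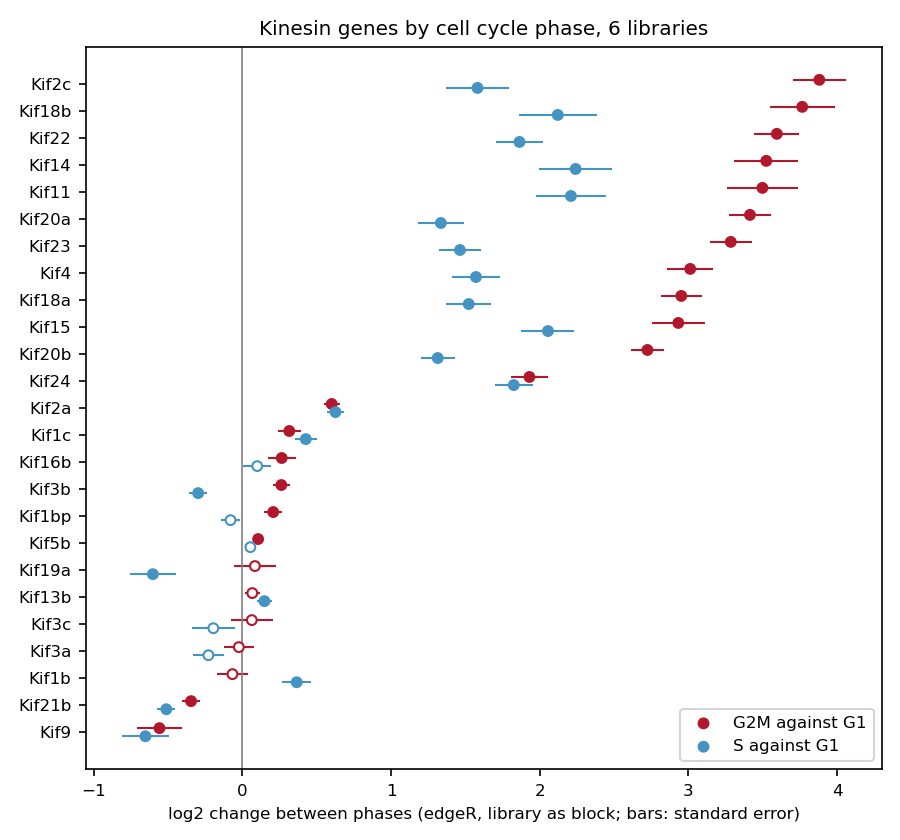
Log2 change of 25 kinesin members from G1 to G2M (red) and from G1 to S (blue) in the edgeR fit over 6 libraries, with bars of 1 standard error; filled points pass an adjusted p of 0.05 and open points do not. In G2M, Kif24 at 1.93 stands between the 11 mitotic motors, at 2.72 and above, and the other members, at 0.60 and below.

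Partners of these motors were followed in lists of spindle genes, of other motors, motor subunits and adaptors, and of dynein and dynactin. Of 20 spindle partners, 11 took no part in the phase call, and all 11 rose in G2M, with a median log2 change of 3.17. The single values that follow are from all 20, genes of the phase lists included, and not only from the 11. Plk1, a mitotic kinase, rose by 3.99, Aurka by 3.92 and Nusap1, a microtubule bundler, by 3.68. The genes of this list outside the 11 are themselves in the phase lists, so their rise is in part set by the call. These single values are therefore a description. Kifc1, the minus-end kinesin of spindle poles, rose by 3.99 and its near-identical copy Kifc5b by 3.33, and reads may be shared between the pair. Of 12 other motors, motor subunits and adaptors tested, 5 rose and 4 fell, against 29.9% and 31% of all genes. The 5 that rose were the kinesins Kifc1, Kifc5b and Cenpe (3.01), with Klc1 and Trak1 (0.23). The light chains of kinesin-1 went different ways: Klc1 rose by 0.56, Klc2 fell by 0.52, Klc4 by 0.84 and Klc3 by 1.05. Of 19 dynein and dynactin genes, 11 rose and 3 fell, with a median of 0.12.

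Shares of cells by the deposited phase followed the same order. At day 7, with the deepest cells, at least 1 UMI of Kif11 was found in 10.9% and 12.2% of G1 cells, 61.9% and 60.5% of S cells and 87.7% and 87.0% of G2M cells. After thinning every cell to 1000 UMIs, the shares were 0.628% and 0.932% in G1 and 18.1% and 16.9% in G2M. In the day 14 libraries the thinned shares were 2.11% and 1.91% in G1 and 26.8% and 28.4% in G2M. Kif5b was found in 15.9% of thinned G1 cells and 13.4% of thinned G2M cells of day 7 replicate 1, which is no step. A G2M cell at day 7 held UMIs of a median of 9 of the 11 mitotic motors, and 90.3% and 88.6% of G2M cells held at least 6, whereas 55.9% and 48.0% of G1 cells held none. In the shallower day 14 cells the median in G2M was 4. The depths differ, so that these unthinned shares are not comparable between tables.

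The deposited clusters divide the cycling cells further; how they were made is not stated and members may have entered them, so cluster values are a description. In every table, a cycling cluster was led by histone genes (cluster 1 at day 7, cluster 0 at day 14, cluster 4 in the chimaeras) and another one by late mitotic genes such as Ube2c, Cenpf and, at days 7 and 14, Cdc20 (cluster 4 at day 7 and day 14, cluster 2 in the chimaeras). The summed mitotic motors were alike in these clusters at day 7, at 1057 and 1032 CPM in the histone-led cluster and 1132 and 1134 CPM in the other. At day 14 they stood at 1576 and 1599.5 against 1503 and 1465 CPM. In the chimaeras they stood at 815 and 840.04 against 1024 and 974 CPM. Among clusters of at least 100 cells in a library, those with the lowest sums were cluster 3 at day 7, led by haemoglobin genes and Klf2 (122 and 152 CPM), cluster 1 at day 14, led by Arhgap24 and Mxd4 (145 and 145 CPM), and cluster 0 of the chimaeras, led by Il4i1 and Nfkbid (139 and 179 CPM).

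Behind like sums, single motors differed between these clusters. By the deposited phase, S cells made up 30.4% of the histone-led cluster at day 7, 28.0% at day 14 and 46.7% in the chimaeras. In the late mitotic cluster they made up 0.228%, 1.75% and 20.2%. Of the 22 members with at least 5 CPM, 4 were higher in the late mitotic cluster in 6 of 6 libraries. That is about the share of all 8570 genes (17%). Another 7 were lower there in 6 of 6, against 15.6% of genes. Kif20a was higher in the late mitotic cluster in 6 of 6 libraries, 1.58 to 2.35 times, with 159 against 84.8 CPM in day 7 replicate 1. Kif2c (1.252 to 2.24 times), Kif23 (1.05 to 1.57 times) and Kif20b (1.10 to 1.37 times) were also higher there in 6 of 6. On the other side, Kif15 (0.527 to 0.839 times), Kif14 (0.702 to 0.953 times) and Kif24 (0.342 to 0.770 times) were lower there in 6 of 6. Kif11 was at 0.622 to 0.657 times in the 4 libraries of days 7 and 14, and at 1.03 and 0.857 times in the chimaera control and KO. Kif20a, Kif2c, Kif23 and Kif20b thus stood higher in the late cluster, and Kif11, Kif14, Kif15 and Kif24 in the histone-led one at days 7 and 14. In the chimaeras, cluster 2 stands for the late cluster. Against histone-led cluster 4, cluster 5 there, led by Cdc20, was lower in Kif23 (87.6 against 151.6 CPM in control, 81.6 against 146.9 in KO). It was also lower in Kif20b (47.9 against 81.8 and 45.0 against 79.2 CPM). Kif20a (56.4 against 34.9, 59.8 against 46.2) and Kif2c (42.4 against 28.1, 38.4 against 34.9) were higher. The order of Kif23 and Kif20b there thus depends on the cluster chosen. Kif20a is among the 10 leading genes of cluster 4 at day 7 and at day 14, so its preference is partly what defines that cluster.

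Cluster 5 of the chimaeras was led by Cdc20, Ccnb2 and Cenpa, genes of mitosis. It had 48.4% and 48.5% of its cells called G2M and 35.2% and 30.3% called G1. Relative to cluster 2, Kif20a was at 0.763 and 0.823 times and Kif2c at 0.672 and 0.621 times in control and KO, while Kif11 was at 0.296 and 0.285 times. Kif5b was at 0.986 and 0.981 times. In cluster 5, Kif11 was at 51.8 and 44.8 CPM and Kif20a at 56.4 and 59.8 CPM in control and KO. The clusters led by the plasma cell genes Prg2, Fkbp11 and Sdc1 (cluster 5 at day 7 and cluster 7 of the chimaeras) had high Kif5b, at 158 and 166 CPM at day 7 and 167 and 137 CPM in the chimaeras. Kif19a was also high there, at 14.3 and 13.3 CPM at day 7 and 9.56 and 7.84 CPM in the chimaeras, against 2.11 to 3.35 CPM over all cells. Kif2a and Kif21b were low in that cluster of the chimaeras, at 8.37 and 13.9 CPM and 17.1 and 16.6 CPM.

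**Figure D3:**
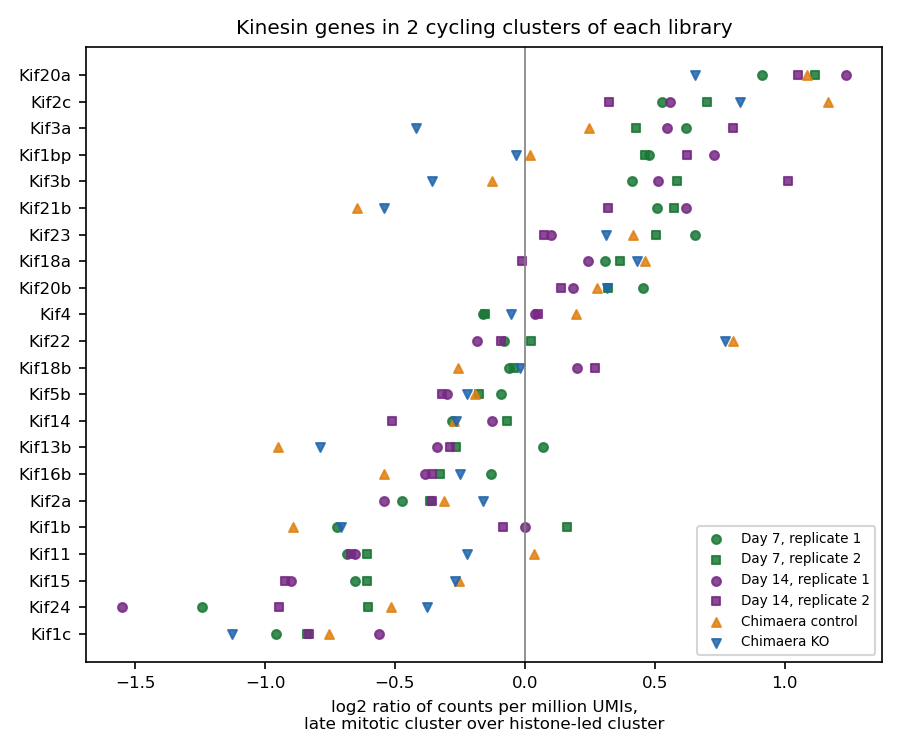
Log2 ratio of the level of 22 kinesin members in the late mitotic cluster, which has Ube2c among its 10 leading genes in every table, over the histone-led cluster of the same library, with 1 point for each of 6 libraries and no error bars. Kif20a, Kif2c, Kif23 and Kif20b lie right of 0 in all 6 libraries and Kif1c, Kif2a, Kif5b, Kif14, Kif15, Kif16b and Kif24 left of 0.

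The deposited position of a cell, dark zone (DZ) or light zone (LZ), also went with the mitotic motors among cells called G1 without kinesins. Their summed level was 116 and 142 CPM in DZ and 47.3 and 50.4 CPM in LZ cells at day 7, and 196 and 177 against 123 and 131 CPM at day 14. In the chimaera control it was 282 against 114 CPM, and in the KO library 271 against 144 CPM. The log2 ratio was 1.02 ± 0.42 (SD, n = 6), from 0.43 in day 14 replicate 2 to 1.498 in day 7 replicate 2. DZ was higher in every library. How the position was called is not stated, and zone gene sets often hold cycle genes, so no test was made.

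In G1 cells, 10 of the 11 mitotic motors were higher in DZ in 6 of 6 libraries, with median log2 ratios from 0.31 (Kif20b) to 1.53 (Kif2c). One of the 10, Kif20b, was level in day 7 replicate 1, at 11.8 CPM in both zones. The DZ cells in G1 at day 7 were only 69 and 114, with 108 and 276 UMIs of the 11 motors together. Single genes there, such as Kif18b in replicate 1 (1.07 against 0.446 CPM), can turn on a few UMIs. Of the 22 members with at least 5 CPM, 12 were higher in DZ in 6 of 6 libraries and 0 lower, against 19.3% and 14.3% of 8570 genes. Kif18a was the exception, higher in 1 of 6. In S cells all 11 were higher in DZ in 6 of 6, from 0.58 (Kif20b) to 1.70 (Kif2c), and of the 22 members 12 were higher and 1 lower, against 15.3% and 20.1% of genes. Among members without a cycle pattern, Kif2a was higher in DZ in 6 of 6 libraries in both phases, with medians of 0.30 in G1 and 0.44 in S. Kif5b was level, with a median of 0.06 in G1 and -0.05 in S. Kif3a was lower in DZ in S in 6 of 6, with a median of -0.28, and higher in G1 in 4 of 6.

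Day 14 was compared with day 7 over 2 libraries each, in one edgeR fit of all cells. The sort gate, the table, the cells' UMI range and the day change together between these groups, and their parts in the result cannot be told apart. The tables also list different symbols, 27998 at day 7 and 31053 at day 14, of which 26599 are in both. By the deposited phase, G2M cells made up 27.4% and 33.8% at day 7 and 30.4% and 30.6% at day 14. Of 26 members tested, 15 were higher at day 14 and 4 lower, against 34.9% of all 11995 genes higher and 33% lower. The largest change was in Kif13b, a motor that carries membrane proteins and scaffold complexes, with 13.8 and 12.1 CPM at day 7 and 39.7 and 37.1 CPM at day 14, a log2 change of 1.40 (SE 0.09, edgeR adjusted p = 5.33e-05). Kif1c, a vesicle motor, followed with 6.31 and 6.01 CPM against 15.95 and 14.9999 CPM, a log2 change of 1.14 (SE 0.10, edgeR adjusted p = 0.000182). In both genes the lowest day 14 library was above the highest day 7 library.

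Transport members were called higher or not called. Of 10 tested, 6 were higher and none lower, with a median log2 change of 0.71 against 0.04 over all genes. Kif21b had 36.9 and 28.1 CPM at day 7 and 71.0 and 68.8 CPM at day 14 (log2 change 0.93). Kif3b had 19.98 and 16.5 CPM against 37.2 and 38.9 CPM (0.88), and Kif1b, a motor of mitochondria and vesicles in neurons, had 6.41 and 4.75 CPM against 12.3 and 12.2 CPM (0.98). Kif16b, an endosome motor, changed by 0.54, and did not pass without day 14 replicate 1 or 2 (0.54 and 0.53, edgeR adjusted p = 0.0581 and 0.0638). In cells of 7290 to 9998 UMIs, the range that both tables hold, 4 of these 6 calls ended: Kif21b was at -0.06, Kif3b at 0.45, Kif16b at 0.59 and Kif1c at 0.75, with edgeR adjusted p = 0.738, 0.106, 0.176 and 0.0645. Kif13b (0.76) and Kif1b (1.47) passed there too. Kif5b (0.16, edgeR adjusted p = 0.0711), Kif2a (0.35), Kif1bp (-0.18), Kif3a (-0.01), Kif3c (-0.30), Kif9 (0.16) and Kif5c (0.18) did not pass. Kif2a varied between the day 7 libraries, with 41.7 and 27.6 CPM, while day 14 had 49.3 and 49.8 CPM.

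The mitotic motors split. Higher at day 14 were Kif14 (0.92), Kif15 (0.83), Kif20b (0.65), Kif4 (0.58), Kif18b (0.58), Kif23 (0.55), Kif11 (0.54), Kif18a (0.50) and, with the mitotic pattern, Kif24 (0.37). Kif24 did not pass without day 14 replicate 1 or 2 (0.41 and 0.34, edgeR adjusted p = 0.0695 and 0.137). Kif15 had 49.2 and 50.8 CPM at day 7 and 100.4 and 103 CPM at day 14. Lower were Kif20a, with 53.1 and 50.1 CPM at day 7 and 39.2 and 41.7 CPM at day 14 (log2 change -0.54, SE 0.07, edgeR adjusted p = 0.000692), Kif2c, with 29.3 and 30.2 against 26.6 and 27.8 CPM (-0.32), and Kif22, with 65.5 and 69.0 against 62.1 and 68.1 CPM (-0.24). The CPM ranges of Kif22 overlapped. Through the scaling of the fit, its log2 changes lie below those of the CPM values, by a median of 0.19 over 22 members, so that Kif22 was at -0.05 and Kif3a at 0.19 on the CPM scale. Kif19a was also lower (-0.62). Within G2M cells alone, 15 of 25 members were higher and 4 lower, against 33% and 31.6% of 10940 genes, and the 4 lower ones were Kif20a (-0.59), Kif2c (-0.42), Kif22 (-0.27) and Kif19a (-0.89).

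The calls at day 14 depended on which cells were compared. With only cells of that UMI range (143 and 151 cells at day 7, 979 and 1038 at day 14), 15 members were higher and 1 lower, against 22.6% and 22.4% of all genes. The range holds the shallowest cells of day 7 and the deepest of day 14. By the deposited phase, median UMIs at day 7 were 12708 and 13875 in G1 against 22338 and 22455 in G2M. At day 14 they were 2699 and 2461 against 3977.5 and 3940. The shares of the phases within the range were not tested. Kif22 (1.43), Kif2c (0.97) and Kif20a (0.66) were higher at day 14 in this range, with edgeR adjusted p = 2.54e-05, 0.00366 and 0.00508. Kif2a was higher there as well (0.67, edgeR adjusted p = 0.0116), and the 1 lower member was Kif19a (-1.41, edgeR adjusted p = 0.0306). The like count of 15 thus holds other members than over all cells: 11 of the 15 passed both ways, while 4 transport members were lost and Kif2a, Kif2c, Kif20a and Kif22 gained. In G2M cells of that range 4 members were higher, Kif11 (0.91), Kif14 (1.71), Kif18b (1.17) and Kif24 (2.89). The 1 lower member was Kif20a (-0.90, edgeR adjusted p = 0.000669). Of all genes, 9.9% were higher and 8.92% lower. The other mitotic motors, each called higher over all cells of the range, were not called in these G2M cells. Their changes were 0.48 (Kif15), 0.34 (Kif20b), 0.31 (Kif4), 0.04 (Kif22), -0.05 (Kif18a), -0.11 (Kif23) and -0.72 (Kif2c, edgeR adjusted p = 0.0718). Kif20a was thus lower in G2M cells of this range too, while the lower level over all cells was not kept. At day 7 these G2M cells are only a part of the 143 and 151 cells. They lie far below the day 7 G2M medians of 22338 and 22455 UMIs, so their values have little behind them. Leaving out either day 14 replicate left 1 member lower in place of 4 over all cells, and 0 or 1 within G2M cells, with the remaining day 14 library assumed to vary like the day 7 pair.

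The size of the step from G1 to G2M was also compared between the days, in a test added after the data were seen. By the kinesin-free phase, 6 members (Kif11, Kif14, Kif18a, Kif18b, Kif20b and Kif23) had a smaller G2M to G1 ratio at day 14 and 0 a larger one, against 5.98% and 2.3% of all genes. By the deposited phase 0 passed in either direction, against 4.84% and 2.31%.

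The chimaera libraries, from day 14 and the day 14 gate, did not share the higher levels. Both day 14 libraries were above both chimaera libraries in 19 of 22 members with a mean of at least 5 CPM, against 61.9% of 8570 genes. Both were above both day 7 libraries in 18 of 22, against 51.3%. Both chimaera libraries were above both day 7 libraries in 0 of 22, against 18.6%, and below both in 15 of 22, against 57.6%. Both day 7 libraries were above both day 14 libraries in 2 of 22 (Kif2c and Kif20a), against 37.9%. Kif13b, for example, had 14.6 and 13.2 CPM in the chimaeras, close to its 13.8 and 12.1 CPM at day 7. The chimaeras differ from the day 14 mice by irradiation and marrow transfer, by table and by depth, and the part of each was not tested.

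**Figure D4:**
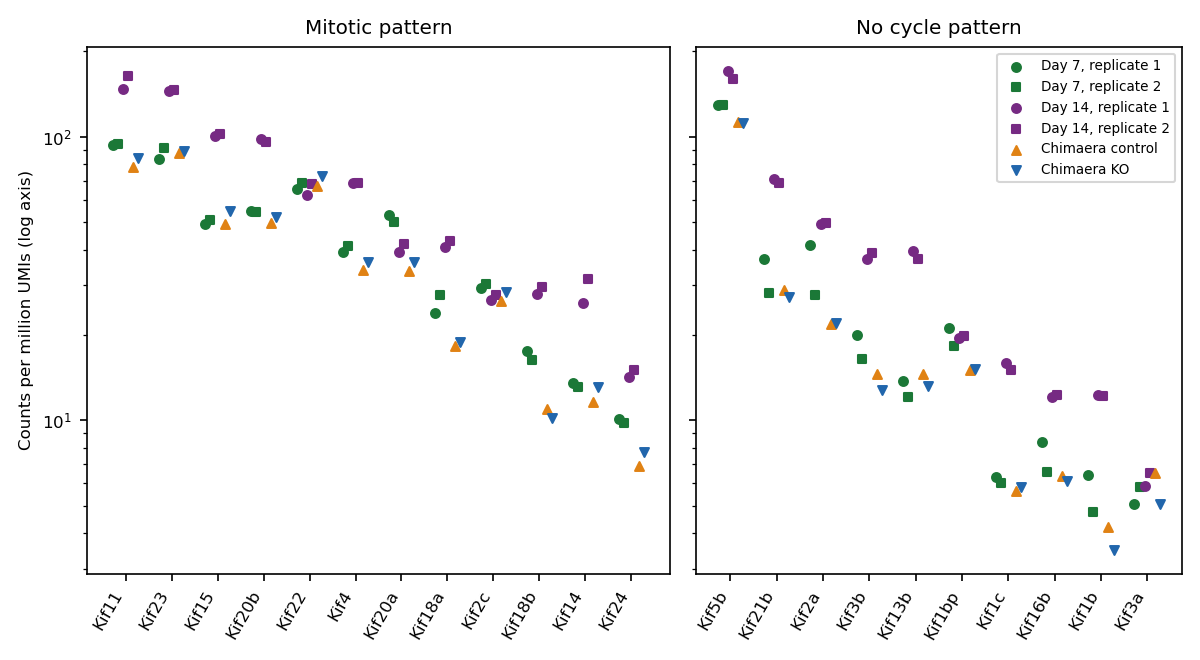
Level of the 12 members with the mitotic pattern (left) and the 10 with no cycle pattern (right) in each of 6 libraries, in CPM on a log axis, with 1 point per library and no error bars. The day 14 libraries stand above the others in most members, whereas Kif20a and Kif2c are highest at day 7 (50.1 to 53.1 and 29.3 to 30.2 CPM).

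Partner genes moved unevenly between the days. Of 13 other motors, motor subunits and adaptors, 9 were higher at day 14 and 0 lower, with a median log2 change of 0.84. Of all genes 34.9% were higher and 33% lower. Among the 9 were the kinesins Cenpe (0.97) and Kifc5b (0.35), while Kifc1 (0.03) was not called. Trak1, the adaptor that joins kinesin-1 to mitochondria, had 10.5 and 9.60 CPM at day 7, 64.3 and 69.4 CPM at day 14 and 16.8 and 16.8 CPM in the chimaeras, a log2 change of 2.56 (SE 0.08, edgeR adjusted p = 2.29e-05). Mapk8ip3, another kinesin-1 adaptor, changed by 1.21, and Kifc2, at no more than 0.547 CPM in any library, by 2.23. Kifap3, the third subunit of kinesin-2, changed by 0.86 beside the 0.88 of Kif3b and the -0.01 of Kif3a. Of 20 spindle partners 8 were higher and 9 lower, among them Aurkb, at 116 and 118 CPM against 47.5 and 49.8 CPM (log2 change -1.45), and Mad2l1 (-1.35). Of 19 dynein and dynactin genes 6 were higher, about the share of all genes, and 10 lower, with a median of -0.30.

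The KO library was set against the chimaera control. With 1 library each there is no test, and intervals cover counting error only. Of 21 members with at least 5 CPM in either library, 0 had an absolute log2 ratio of 0.5 or more, against 2.51% of 8157 genes, and within G2M cells 0 of 21 did, against 2.17%. The summed mitotic motors were at 466 and 496 CPM in control and KO, a log2 ratio of 0.09 (95% interval 0.06 to 0.11), and the 2 day 14 replicates differed by 0.07. The KO library had more G2M cells (31.2% against 26.7% by the deposited phase). Within G2M cells the sum was 966 and 900.4 CPM in control and KO, a log2 ratio of -0.10 (95% interval -0.13 to -0.07), and with equal shares of phases in both libraries the ratio over all cells was -0.02.

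Single mitotic motors followed these sums. Kif11 was at 78.2 and 84.5 CPM in control and KO (log2 ratio 0.11, 95% interval 0.05 to 0.17) over all cells and at 154 and 144 CPM in G2M cells (-0.10, -0.17 to -0.02). Kif14 (0.18), Kif15 (0.15) and Kif22 (0.12) had the highest ratios of the 11 over all cells, and Kif18b, at 11.004 and 10.2 CPM (-0.11), was the only one under 0. In G2M cells Kif18b had the lowest ratio of the 11, -0.29 (-0.50 to -0.09). The day 14 replicates differed by up to 0.29 in a mitotic motor over all cells (Kif14). In G2M cells they differed by up to 0.17 (Kif14).

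Of the members without a cycle pattern, Kif5b was level (113 and 112 CPM, log2 ratio -0.01, 95% interval -0.06 to 0.04), as was Kif2a (21.9 and 21.998 CPM, 0.0059). Kif3a had the lowest ratio, at 6.51 and 5.07 CPM from 390 and 294 UMIs (-0.36, -0.58 to -0.14), and its partner Kif3b stood at 14.6 and 12.8 CPM (-0.18, -0.33 to -0.04). The counting intervals of both genes lay below 0. Between the day 14 replicates Kif3a differed by 0.15 and Kif3b by 0.06. Spread between chimaera libraries of 1 group was not tested.

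**Figure D5:**
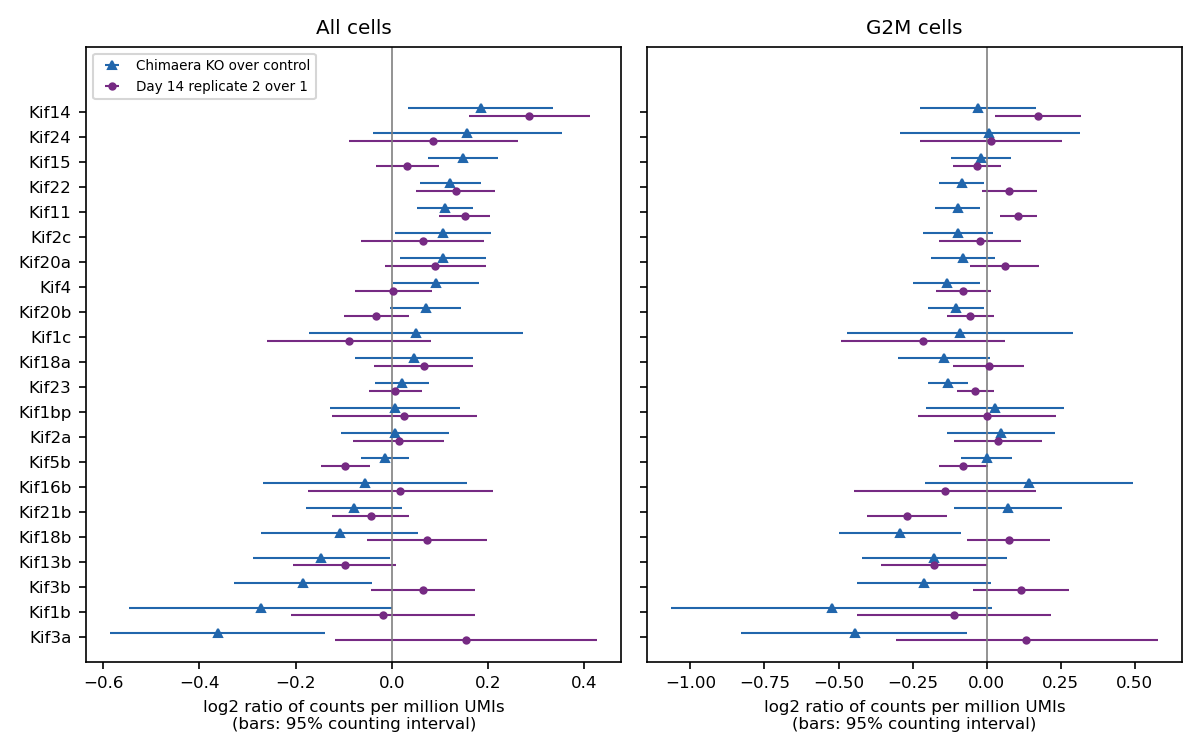
Log2 ratio of the level of 22 kinesin members in the chimaera KO over the control library (blue triangles), beside that of day 14 replicate 2 over replicate 1 (purple circles), in all cells (left) and in G2M cells (right), with bars for 95% counting intervals. Over all cells the ratios run from -0.36 (Kif3a) to 0.18 (Kif14), and in G2M cells most mitotic motors lie just left of 0.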

How the data were processed

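Single-cell RNA sequencing of sorted mouse spleen B cells was analysed in 6 libraries. The authors deposited raw UMI counts, 1 table for each experiment; per the submitters' processing notes Cell Ranger, Seurat and the mm10 genome were used, with versions not given in the sources used here. The values are whole numbers. The deposited cell tables give library, phase, position and cluster per cell, and how those were called is not given in the sources used here. A further column (1 in all), of receptor barcodes, was not used. All deposited cells were kept and no doublet caller was run; an alternative left out the 5% of cells with the most UMIs per library.

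Cells were mapped to samples by the library column of the cell tables. Counts were summed per library and phase over the 14548 symbols listed in all 3 tables for levels in counts per 1000000 (CPM), and over the symbols shared by the tables compared for tests. The kinesin-free phase came from S and G2M lists (46 and 49 genes) without kinesins. Tests used edgeR 4.0.16 (R 4.3.3): TMM scaling, filterByExpr, quasi-likelihood F tests and Benjamini-Hochberg adjustment over all genes, called under 0.05, with SE from the test. DESeq2 1.42.0 was an alternative. The procedure was tested on simulated counts. Within-cell thinning drew 1000 UMIs per cell and left out shallower cells, 0 at day 7, 372 and 565 at day 14, 44 in the chimaera control and 18 in the KO library. Ratios of 1 library to another carry exact conditional binomial intervals (95%), and the limit for a count of 0 is 3 UMIs per library. Figures and tables were made with Python 3.11.15.

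The members, the partner lists and the tests were chosen with earlier results of these data known. Named with values per library were the 11 mitotic motors, up to 10 other members with the highest mean CPM, members called between the days with an absolute log2 change of at least 1, and up to 4 called genes per partner list; other partners and Kif3a, Kif19a and Kif9 were named after their values were seen. Where replicates carry the same number, the labels do not say that they are paired.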

Additional observations from a re-analysis of the deposited data

Results flagged for a closer look

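A pattern in which the G2M to G1 ratio of a gene was compared between day 14 and day 7, in edgeR with kinesin-free phases, was added after the data were seen. In that test of the difference itself, 6 members had a smaller ratio at day 14 and 0 a larger one, against 5.98% of 11307 genes smaller and 2.3% larger. The log2 differences of the ratio were -1.61 for Kif14 (edgeR adjusted p = 0.0214), -1.59 for Kif18b (0.0127), -0.98 for Kif11 (2.16e-05), -0.93 for Kif18a (0.00244), -0.91 for Kif23 (7.91e-06) and -0.63 for Kif20b (0.00141). All of these have the mitotic pattern by the deposited phase. With the deposited phase in place of the kinesin-free one, 0 members passed in either direction, against 4.84% and 2.31% of 11342 genes, and the 6 differences shrank to -0.50, -0.44, -0.05, -0.37, -0.23 and -0.19 in the same order. The kinesin-free call put 38.4% and 28.5% of day 7 cells in G1, and the deposited one 47.2% and 38.2%. At day 14 the 2 calls gave 42.0% and 40.9%, and 42.3% and 41.2%.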

How the results depend on the processing

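Most calls of single members kept their direction and side of the threshold: of the alternative values, 1089 were alike, 76 lost and 16 gained the threshold and 21 changed sign. Sign changes in G2M against G1 were Kif1b thinned to 1000 UMIs (0.11), Kif3c with no replicate block (-0.0081), and, leaving out single libraries, Kif3a (-0.038 to 0.0029), Kif19a (-0.015 to 0.19) and Kif3c (-0.033 to 0.13). In S against G1 they were Kif1bp (0.068) and Kif3c (0.11) when thinned. For day 14 against day 7 they were Kif3a with no filter on low counts (0.014), with the replicate block (0.0019) and leaving out single libraries (-0.16 to 0.13), and, in cells of the shared UMI range, Kif21b (-0.064), Kif2c (0.97), Kif22 (1.43) and Kif20a (0.66). Within G2M cells they were Kif9 without the 5% deepest cells (-0.0099), Kif3a leaving out single libraries (-0.21 to 0.50), and, in the shared UMI range, Kif18a (-0.048), Kif22 (0.044), Kif23 (-0.11) and Kif3a (-0.22). The cause was not tested. With no replicate block, 0 members in place of 2 were lower in G2M than in G1 and 1 in place of 4 in S; with thinning 1 and 2 were. Members higher numbered 12 in place of 18 in G2M with no replicate block. For day 14 against day 7 the shared UMI range left 1 lower in all cells, and 4 higher and 1 lower in G2M cells. Leaving out each library gave 13 to 17 higher and 1 to 4 lower in all cells, 11 to 17 higher and 0 to 5 lower in G2M cells, 16 to 18 higher and 2 lower for G2M against G1, 15 to 16 higher and 4 to 5 lower for S against G1, and 0.92 to 1.14 for DZ against LZ. The KO to control ratio of the mitotic sum was 0.12 with TMM scaling and -0.021 with equal phase shares. The test of the G2M to G1 ratio between days called 0 members with the deposited phase in place of 6. DESeq2 called 14 higher and 3 lower over all cells between days, and 18 and 2 in G2M against G1.

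The labels do not say that replicate numbers pair the libraries of days 7 and 14. The deviations of same-numbered libraries correlated at 0.20 over 11995 genes, with only 2 pairs. With the replicate number as a block, 16 members were higher and 4 lower at day 14 over all cells, and 16 and 4 within G2M cells. Depth limits the rarest members: a count of 0 allows up to 0.150 CPM in day 7 replicate 1.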

Other observations

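Kif21b differed between deposited clusters outside the mitotic ones. The gene was chosen after its values were seen, and the values are a description. At day 7 it was at 52.6 and 48.1 CPM in cluster 3, led by haemoglobin genes and Klf2, and at 19.4 and 19.1 CPM in cluster 2, led by Ccnd2, Srm and Shmt1 with Myc among its 10 leading genes. At day 14 it was at 129 and 128 CPM in cluster 3, led by unannotated transcripts with Jun and Lars2, and at 32.9 and 43.0 CPM in cluster 5, with Myc among its leading genes. A cluster of 24 cells in day 14 replicate 2 stood higher still. In the chimaeras Kif21b was at 42.1 and 36.9 CPM in cluster 0, led by Il4i1 and Nfkbid, and at 13.9 and 19.2 CPM in cluster 6, with Myc among its leading genes. Kif5b, in comparison, was at 115 and 124 CPM in cluster 2 of day 7 and at 133 and 134 CPM in cluster 3. In cluster 3 of day 14 the summed transport kinesins reached 475 and 490.3 CPM, against 313 to 379 CPM in the other day 14 clusters of more than 300 cells per library.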
